A study of Homo sapiens with 40 samples.

Results

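Clone 84, a line of the human lung carcinoma line H1299 whose genotype label reads MYO10 KD, was compared with the MYO10 KO clones 98 and 99 across all genes. The libraries were chosen by their labels, 4 cultures of clone 84 against 8 cultures of the knockout clones, 12 of the 40 libraries in all. Titles of the clone 84 libraries call the clone a knockout, so titles and genotype labels differ for it. All 3 lines carry the treatment label CRISPR-Cas9 edited, and the title of the series places the edits in H1299 leader cells, a name for the cells that head a group invading together. The other lines were JAG1 knockout clones, the edited clones 38 and 75 with wild-type MYO10 and JAG1, and unedited leader, follower and parental lines, with 4 cultures each. The knockdown genotype rests on 1 clone, so that genotype and clone cannot be told apart, and p-values measure the spread between cultures of a line.

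MYO10 encodes myosin-X, an unconventional myosin that walks along bundled actin and collects at the tips of filopodia, where it carries integrins and other cargo. Filopodia are thin protrusions with which migrating cells probe the matrix, and myosin-X is known for its part in invasion by carcinoma cells. SPP1 encodes osteopontin, a secreted matrix phosphoprotein that binds integrins and CD44. OASL belongs to the genes that interferons switch on through their receptors and JAK kinases.

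A level is a gene's count scaled to the total of its library (CPM), and a fold change is clone 84 over the average of clones 98 and 99, on the log2 scale with its standard error. Totals of the 12 libraries lay between 41393264 and 43683804 counts. The first principal component held 48.2% of the variance among the 12 libraries and set the 4 clone 84 libraries apart from the other 8. The second held 26.8% and parted clone 98 from clone 99. VIM, a filament protein of mesenchymal cells, was abundant at 2126 to 2287 CPM in clone 84, 1652 to 2195 CPM in clone 98 and 1616 to 1774 CPM in clone 99. Of the other mesenchymal markers, ZEB1 lay between 73.0 and 122.6 CPM and FN1 between 90.8 and 340.7 CPM in these libraries. CDH2 was nearly missing from clone 98 at 0.0681 to 0.224 CPM, against 27.02 to 32.95 CPM in clone 84 and 10.99 to 13.64 CPM in clone 99. Of the lung lineage markers, SCGB1A1 was at 0 in the 12 libraries, and NKX2-1, SFTPB, SFTPC and NAPSA reached at most 1.01 CPM. Of the epithelial markers EPCAM, CDH1 and KRT19 stayed below 0.260 CPM in these libraries, while KRT18 lay between 286 and 620 CPM. KRT8 differed between the lines, at 23.4 to 31.4 CPM in clone 84, 529.8 to 649.3 CPM in clone 98 and 231.7 to 398.4 CPM in clone 99. The leukocyte markers PTPRC and CD3E had at most 1 count, and the summed leukocyte list of 53.1 to 108 CPM was nearly all CD68. Summed fibroblast and endothelial markers stayed below 2.91 CPM. The genes LDHA and ZYX had no more than 3 and 10 counts in any of the 40 libraries, although cultured cells commonly express both, so a level near 0 does not show that a transcript is absent.

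MYO10 transcript was higher in clone 84 than in either knockout clone and below every culture of the wild-type clones. The gene lies on chromosome 5 from 16661907 to 16936288 (GRCh38). In clone 84 its level was 135, 134, 191 and 139.7 CPM. In clone 98 it was 63.05, 55.4, 67.8 and 67.6 CPM, and in clone 99 47.6, 49.1, 52.2 and 59.1 CPM. The clone 84 cultures lay above all 8 knockout cultures, with replicate 3 the highest. The log2 fold change was 1.38 ± 0.12, with an adjusted p of 3.0e-08 in edgeR's quasi-likelihood test, against a median of 0.01 over all genes tested. Wild-type clones 38 and 75 averaged 491 ± 79.9 and 441 ± 66.9 CPM, and leaders 645 ± 75.2 CPM (SD, n = 4 each), and the lowest wild-type culture stood at 388 CPM. A count per gene does not show which exons the reads came from, and protein was not measured. The 20 tested neighbours of MYO10, 10 on each side, had medians of -0.59 against clone 98 and 0.17 against clone 99 on the log2 scale, in opposite directions. The 40 consecutive tested genes from 10249921 to 32444740, a stretch that spans MYO10, were low in all 3 lines. Relative to the median of the 10 lines, their median was -0.74 in clone 84, -0.33 in clone 98 and -0.97 in clone 99. What underlies this was not tested.

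JAG1, a Notch ligand and the other edited gene of the study, was not called. Its level was 127, 119.6, 209.8 and 146 CPM in clone 84, 72.8, 70.5, 100.5 and 78.2 CPM in clone 98 and 72.2, 97.9, 116 and 121 CPM in clone 99. The lowest culture of clone 84 lay just under the highest of clone 99, and replicate 3 of clone 84 again stood highest. The log2 fold change of 0.73 ± 0.14 passed the test in edgeR (adjusted p of 0.0069) but was below the fold required. The 20 neighbours of JAG1 had medians of 0.74 against clone 98 and 0.40 against clone 99.

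**Figure D1:**
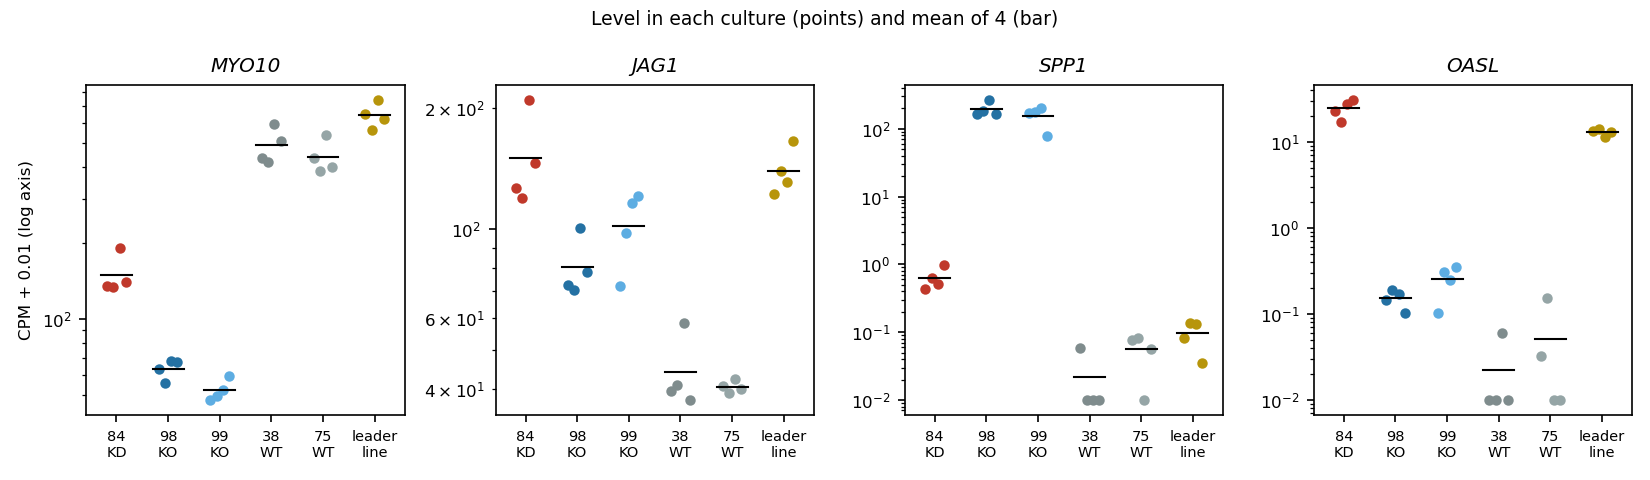
Levels of MYO10, JAG1, SPP1 and OASL in each culture of clone 84 (knockdown), clones 98 and 99 (knockout), clones 38 and 75 (wild-type) and the leader line, as CPM plus 0.01 on a log axis; points are cultures and bars the mean of 4. Clone 84 sits between the knockout and wild-type clones for MYO10, below the knockout clones for SPP1 and above them for OASL.

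SPP1 stood at the opposite extreme. It is on chromosome 4 from 87975714 to 87983411, and in clone 84 it measured 0.419, 0.613, 0.500 and 0.982 CPM. The knockout clones measured 167, 182, 269 and 164 CPM in clone 98 and 171, 176, 201 and 76.9 CPM in clone 99. All clone 84 cultures were below 1 CPM and all knockout cultures above 76 CPM, for a log2 fold change of -8.11 ± 0.32 (edgeR, adjusted p of 4.4e-19). Leaders at 0.0863 CPM and wild-type clones 38 and 75 at 0.0119 and 0.0464 CPM also had little SPP1, while the parental line averaged 4.66 CPM. Clones 98 and 99 had the highest means of the 10 lines, JAG1 knockout clone 35 came next at 51.2 CPM, and clone 84 stood below the parental line.

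OASL, an oligoadenylate synthetase-like antiviral protein, went the other way. It is on chromosome 12 from 121017761 to 121039246, and its level was 22.6, 17.2, 27.6 and 30.96 CPM in clone 84. Clone 98 had 0.136, 0.179, 0.160 and 0.0936 CPM and clone 99 had 0.0924, 0.297, 0.236 and 0.342 CPM. No knockout culture came near the clone 84 cultures, and the log2 fold change was 7.02 ± 0.22 (edgeR, adjusted p of 1.5e-21). Wild-type clones averaged 0.0123 and 0.0417 CPM and leaders 12.9 CPM, so clone 84 was above its wild-type counterparts and nearer to the leader line.

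A gene was called when clone 84 differed from both knockout clones in the same direction at an adjusted p under 0.05, with an average change of at least 2-fold. Of 19703 genes tested, 1980 (10.0%) were called, 1159 higher (5.88%) and 821 lower (4.17%) in clone 84. Against clone 98 alone, 3087 genes (15.7%) were called for clone 84, with 9.27% of all genes up and 6.39% down. Against clone 99 alone there were 2782 (14.1%), with 7.65% up and 6.47% down. The knockout clones differed from each other in 1882 genes (9.55%), 842 higher (4.27%) and 1040 lower (5.28%) in clone 98. These counts rest on the spread between cultures. With counts summed per line, so that a clone was the unit with 3 residual degrees of freedom, edgeR called 0 genes and 1526 had an unadjusted p under 0.05.

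**Figure D2:**
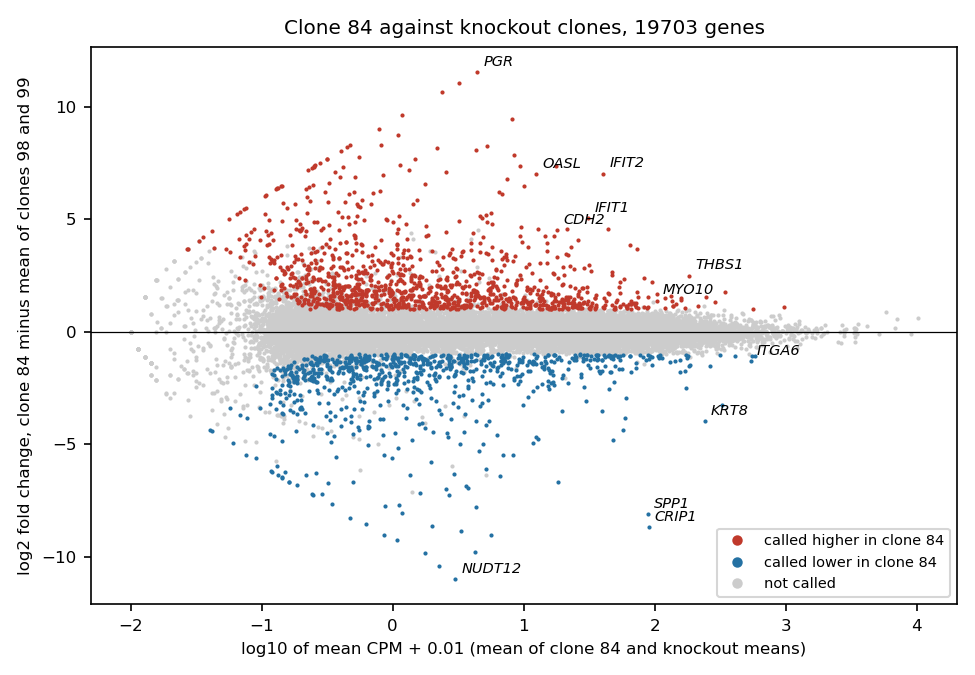
Change of each of the 19703 genes tested (log2 fold change, clone 84 minus the mean of clones 98 and 99) against its level (log10 of the mean CPM plus 0.01). Coloured points are the 1159 genes called higher and the 821 called lower in clone 84; the widest changes are in genes that one side barely expressed.

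The 12 called genes with the highest change, ranked by the smaller of the changes against the 2 knockout clones among genes of at least 5 CPM, were PGR, TLE4, NEXMIF, PRKAA2, IFI44, OASL, IFIT3, AFAP1L2, IFIT2, FAM133A, NAP1L2 and BICC1. PGR, the progesterone receptor, had 8.41, 8.80, 9.03 and 8.96 CPM in clone 84 and no count in any of the 8 knockout cultures, which makes it at least 1021-fold higher against a floor of 3 counts over those cultures. TLE4, a transcriptional corepressor, had 6.24, 7.57, 5.16 and 6.49 CPM in clone 84 and likewise no count in the knockout cultures, at least 739-fold higher. PRKAA2, a catalytic subunit of the energy sensor AMPK, had 36.5, 36.7, 30.2 and 36.7 CPM in clone 84, 0.204, 0.179, 0.0688 and 0.164 CPM in clone 98 and 0.347, 0.229, 0.283 and 0.251 CPM in clone 99. Levels within clone 84 were close together for these genes. That its cultures and the knockout cultures do not overlap follows from ranking the genes by size of change.

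Where the other lines stood differed from gene to gene. PRKAA2 averaged 31.8 and 29.9 CPM in wild-type clones 38 and 75 and 31.3 CPM in leaders, and TLE4 averaged 3.70, 5.66 and 3.38 CPM in the same order, so for both it was the knockout clones that stood apart. NEXMIF, named for roles in neurite extension and migration, averaged 16.2 CPM in clone 84, 5.07 and 8.22 CPM in the wild-type clones and 0.729 CPM in leaders. PGR was at 0 in leaders and in clone 75 and averaged 1.79 CPM in clone 38. AFAP1L2, an actin filament-associated adaptor, averaged 5.09 CPM in clone 84 and 11.4 CPM in leaders, against at most 0.0631 CPM as the mean of any of the knockout or wild-type clones. BICC1, an RNA-binding protein, and NAP1L2, of the nucleosome assembly protein family, averaged 14.7 and 13.3 CPM in clone 84 and at most 0.245 CPM in each knockout clone.

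The 12 called genes with the lowest change were NUDT12, PICSAR, KRT2, CRIP1, SPP1, C9orf64, CHDH, EYA1, C12orf56, C1QTNF12, SLIT2 and FTCD. NUDT12, a hydrolase that removes NAD caps from RNA, had no count in any clone 84 culture and 4.61, 6.07, 6.74 and 5.78 CPM in clone 98 and 7.23, 6.54, 6.27 and 4.79 CPM in clone 99, at least 346-fold lower against a floor of 3 counts over clone 84. It averaged 5.64 and 7.36 CPM in wild-type clones and 5.76 CPM in leaders, so here clone 84 was the line apart. CRIP1, a small LIM-domain protein, had 0.629, 0.330, 0.318 and 0.457 CPM in clone 84, 123, 166, 220.3 and 153 CPM in clone 98 and 181, 217, 214 and 158 CPM in clone 99. For CRIP1 the wild-type clones at 1.68 and 1.04 CPM and the leaders at 0.530 CPM lay with clone 84.

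The remaining genes of that group followed the pattern of CRIP1 and SPP1, with means of wild-type clones 38 and 75 and of leaders at or below 0.529 CPM for each of them. KRT2, a keratin of the epidermis, averaged 0.0115 CPM in clone 84, 6.47 CPM in clone 98 and 6.86 CPM in clone 99. C1QTNF12, a secreted adipokine-like protein, averaged 0.346 CPM in clone 84, 30.6 CPM in clone 98 and 41.7 CPM in clone 99. SLIT2, a ligand of Robo receptors, averaged 0.0579 CPM in clone 84, 5.19 CPM in clone 98 and 9.28 CPM in clone 99. EYA1, a transcriptional coactivator and phosphatase, CHDH, choline dehydrogenase, and FTCD, an enzyme of histidine and folate metabolism, had log2 fold changes of -7.25, -7.80 and -6.39. PICSAR is a long non-coding RNA, and with the strand setting unknown its reads cannot be told from those of an overlapping gene.

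**Figure D3:**
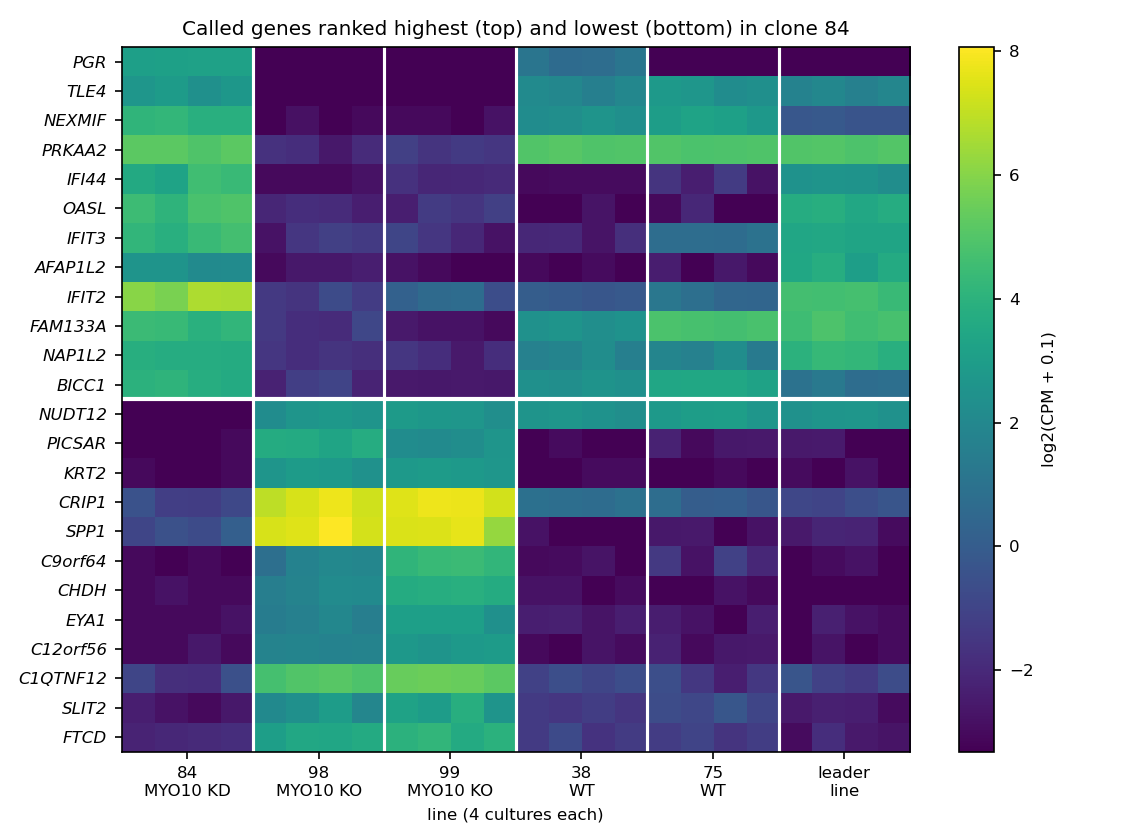
Levels (log2 of CPM plus 0.1, colour) of the 12 highest and the 12 lowest called genes in the 4 cultures of clone 84, of knockout clones 98 and 99, of wild-type clones 38 and 75 and of the leader line. Most genes of the lower block are high in clones 98 and 99 alone among the lines drawn; NUDT12 is low in clone 84 alone.

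Among the called genes, the level in other lines can be set beside each side. On log2(CPM + 0.1), the mean of wild-type clones 38 and 75 was nearer to clone 84 than to the knockout clones for 650 of the 1159 genes called higher (56.1%) and 601 of the 821 called lower (73.2%). For leaders these were 772 (66.6%) and 654 (79.7%), and for the parental line 720 (62.1%) and 523 (63.7%). These shares describe the lines and carry no test, and the same share over all genes was not computed.

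Interferon-stimulated genes were the list with the most members called higher. Of 38 members tested, 22 rose (57.9%, against 5.88% of all genes), 1 fell and 15 were not called, and the median log2 fold change was 1.62 against 0.01 over all genes. Another 7 members, among them IFI27, IFI44L and MX2, had too few counts to test. The members' CPM summed to 1031 in clone 84, 504 in clone 98 and 417 in clone 99.

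Effectors of the antiviral response carried the largest changes. IFIT2, an RNA-binding protein that restrains translation, had 65.1, 54.4, 101 and 99.2 CPM in clone 84, 0.273, 0.224, 0.504 and 0.304 CPM in clone 98 and 1.06, 1.42, 1.51 and 0.547 CPM in clone 99. IFIT3, its partner in the same complexes, had 17.9, 14.5, 21.2 and 25.4 CPM in clone 84, 0.0454, 0.246, 0.344 and 0.281 CPM in clone 98 and 0.416, 0.251, 0.141 and 0.0456 CPM in clone 99. IFI44 had 12.1, 9.74, 23.9 and 20.8 CPM in clone 84, 0.0227, 0.0224, 0.0229 and 0.0468 CPM in clone 98 and 0.208, 0.137, 0.141 and 0.160 CPM in clone 99. Replicates 3 and 4 were the higher cultures of clone 84 for each of these 3 genes, as they were for OASL. IFIT1, which binds viral RNA ends, averaged 60.6 ± 11.97 CPM in clone 84, 1.65 ± 0.544 CPM in clone 98 and 2.01 ± 0.676 CPM in clone 99 (SD, n = 4 each), a log2 fold change of 5.06 ± 0.18 (edgeR, adjusted p of 5.3e-18). RSAD2, which encodes viperin, was low even in clone 84 at 0.815, 0.566, 0.568 and 0.868 CPM, against 1 count in clone 98 and none in clone 99.

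Of the sensors of cytoplasmic RNA on the list, IFIH1 and DDX58 rose, while DHX58 and EIF2AK2 were not called, with log2 fold changes of 0.77 and -0.06. IFIH1, which encodes MDA5, averaged 81.1 ± 9.49 CPM in clone 84, 19.4 ± 1.46 CPM in clone 98 and 8.60 ± 1.67 CPM in clone 99, a log2 fold change of 2.65 ± 0.07 (edgeR, adjusted p of 2.2e-23). DDX58, which encodes RIG-I, averaged 68.3 ± 13.7 CPM in clone 84, 23.03 ± 2.58 CPM in clone 98 and 19.5 ± 1.41 CPM in clone 99. The log2 fold change of DDX58 was 1.69 ± 0.08. MAVS, the mitochondrial adaptor of both sensors, had a log2 fold change of 1.15 ± 0.05 (edgeR, adjusted p of 5.1e-19), with 181 to 198 CPM in clone 84 and 67.8 to 99.1 CPM in the knockout clones. It lies on chromosome 20, in a run of neighbouring genes that were higher in clone 84, described below. Of the ubiquitin-like modifier ISG15 and its enzymes, ISG15, its ligase HERC5 and the conjugating enzyme UBE2L6 rose by 1.49, 2.20 and 1.42 on the log2 scale, while the protease USP18 was not called. HERC5 averaged 88.2 ± 15.1 CPM in clone 84, 24.7 ± 2.40 CPM in clone 98 and 14.9 ± 0.387 CPM in clone 99.

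The oligoadenylate synthetases OAS1, OAS2 and OAS3 also rose, with OAS3 at 50.3 ± 3.12 CPM in clone 84, 24.6 ± 1.22 CPM in clone 98 and 1.72 ± 0.236 CPM in clone 99. OAS3 was as high in wild-type clones 38 and 75, at 67.3 and 66.3 CPM, and in leaders at 60.01 CPM, unlike OASL. BST2, which encodes tetherin, was the member that fell, with 0.186, 0.283, 0.227 and 0.594 CPM in clone 84, 2.16, 2.44, 3.92 and 3.79 CPM in clone 98 and 6.05, 6.99, 4.81 and 4.31 CPM in clone 99. Its log2 fold change was -3.66 ± 0.27 (edgeR, adjusted p of 1.8e-12). MX1, a GTPase that blocks viral nucleocapsids, was not called at 2.46 ± 0.31 on the log2 scale, with 0.900 CPM in clone 84, 0.617 CPM in clone 98 and 0.0403 CPM in clone 99. Clone 98 lay close to clone 84 for this gene.

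Of the transcription factors of interferon signalling, STAT2 and IRF7 had log2 fold changes of 0.13 ± 0.07 and -0.15 ± 0.28 and did not pass the test. Of 19 receptors and signalling genes tested, 3 were higher (IFNLR1, SOCS1 and MAVS, 15.8% against 5.88% of all genes) and 1 lower (SOCS3, 5.26% against 4.17%). SOCS1 and SOCS3, feedback inhibitors of JAK kinases, had log2 fold changes of 1.18 ± 0.26 and -1.003 ± 0.19, and without clone 84 replicate 3 SOCS1 came to 0.69 and was not called. SOCS3 lay at the threshold and lost its call when any 1 of 5 cultures was left out. The receptor subunits IFNAR1, IFNAR2, IFNGR2 and IL10RB, neighbours on chromosome 21, had log2 fold changes of -0.49, -0.83, -0.81 and -0.47, which were short of the fold required. IFNLR1, the receptor of interferon lambda, averaged 1.53 CPM in clone 84, 0 in clone 98 and 0.918 CPM in clone 99. Its groups overlapped, and it lost its call without replicate 4 of clone 84 or of clone 99.

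Promoter sequences of 4 interferon-stimulated genes that rose are shown because these genes moved together in clone 84. They run from 250 bases before to 50 bases after the transcription start, 5′ to 3′ on the strand of the gene, as RefSeq gives them for GRCh38.p14. IFIT1 is at chr10:89392373-89392672 on the plus strand, IFIT3 at chr10:89327747-89328046 on the plus strand, IFI44 at chr1:78649539-78649838 on the plus strand and HERC5 at chr4:88456869-88457168 on the plus strand. Capitals mark matches to GAAANNGAAA, the core spacing of the interferon-stimulated response element, on either strand, so that a match on the opposite strand reads TTTCNNTTTC. Neighbouring matches may overlap, as in HERC5.
IFIT1: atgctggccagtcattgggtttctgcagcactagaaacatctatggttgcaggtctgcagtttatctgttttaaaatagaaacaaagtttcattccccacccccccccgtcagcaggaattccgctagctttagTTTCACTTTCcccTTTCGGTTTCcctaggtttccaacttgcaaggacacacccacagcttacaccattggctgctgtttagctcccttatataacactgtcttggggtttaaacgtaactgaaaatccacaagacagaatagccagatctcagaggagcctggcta
IFIT3: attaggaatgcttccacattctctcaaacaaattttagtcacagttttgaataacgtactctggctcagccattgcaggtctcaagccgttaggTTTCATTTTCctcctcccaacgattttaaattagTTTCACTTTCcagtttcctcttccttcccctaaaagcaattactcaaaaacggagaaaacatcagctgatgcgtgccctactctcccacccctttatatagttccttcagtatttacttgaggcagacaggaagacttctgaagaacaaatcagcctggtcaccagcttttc
IFI44: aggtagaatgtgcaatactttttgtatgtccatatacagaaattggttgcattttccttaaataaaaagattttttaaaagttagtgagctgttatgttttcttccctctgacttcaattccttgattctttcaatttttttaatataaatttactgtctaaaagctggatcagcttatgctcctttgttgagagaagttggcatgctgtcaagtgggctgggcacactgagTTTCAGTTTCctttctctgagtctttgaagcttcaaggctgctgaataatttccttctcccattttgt
HERC5: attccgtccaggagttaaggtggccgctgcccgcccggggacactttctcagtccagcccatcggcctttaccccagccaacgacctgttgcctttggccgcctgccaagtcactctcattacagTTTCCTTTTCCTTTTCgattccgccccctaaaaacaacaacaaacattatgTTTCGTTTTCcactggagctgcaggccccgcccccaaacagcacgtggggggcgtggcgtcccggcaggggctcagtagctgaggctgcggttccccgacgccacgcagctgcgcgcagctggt
IFIT1 and IFIT3 held 2 matches each, IFI44 held 1 and HERC5 held 3. Of the 22 list members called higher, 19 had a promoter in the RefSeq table, and 11 of these (57.9%) held a match. Of the 16 tested members not called higher, 12 had a promoter and 8 (66.7%) held one, while 996 of 27305 promoters in the table did (3.65%).

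Of 29 chemokines and other inflammatory genes tested, 8 rose (27.6%, against 5.88% of all genes) and none fell (against 4.17%), with a median log2 fold change of 0.38. CXCL10, a chemokine that interferon induces, had 0.629, 0.613, 0.705 and 1.30 CPM in clone 84, no count in clone 98 and 1 count in clone 99. CXCL11, a ligand of the same receptor, had 1.44, 0.849, 0.568 and 1.19 CPM in clone 84 and 1 count in each knockout clone. Both were below 2 CPM even where they were highest. ICAM1, an adhesion molecule for leukocytes, averaged 38.8 ± 8.37 CPM in clone 84, 8.28 ± 2.93 CPM in clone 98 and 12.3 ± 5.42 CPM in clone 99, a log2 fold change of 1.94 ± 0.18 (edgeR, adjusted p of 2.5e-07). CSF1, the macrophage growth factor, IL32, IL15, CCL2 and TNFRSF9 were the other members called higher.

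Of 15 genes of antigen presentation tested, HLA-B and HLA-C rose (13.3%, against 5.88% of all genes) and none fell (against 4.17%). HLA-C had 111, 106, 108 and 106 CPM in clone 84, 51.7, 68.7, 54.5 and 56.6 CPM in clone 98 and 18.6, 18.2, 15.2 and 16.9 CPM in clone 99. HLA-B had 96.1, 89.96, 108 and 97.3 CPM in clone 84, 65.7, 78.2, 66.6 and 68.3 CPM in clone 98 and 22.7, 21.5, 23.01 and 23.7 CPM in clone 99. Clone 99 was the lowest line for both genes and clone 98 lay nearer to clone 84, so that the average exceeded the fold required through clone 99. B2M, the shared light chain, was just under it at 0.98 ± 0.10. Reads of HLA genes can be shared between near-identical copies, so their counts are uncertain.

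Other unconventional myosins moved in both directions. Of 17 tested, MYO5B, MYO6 and MYO10 rose (17.6%, against 5.88% of all genes) and MYO5C and MYO7A fell (11.8%, against 4.17%). The median log2 fold change was 0.05. MYO6, which walks toward the minus end of actin and serves endocytosis, had 68.4, 67.8, 60.6 and 74.4 CPM in clone 84, 20.5, 23.2, 18.2 and 26.01 CPM in clone 98 and 20.2, 18.7, 16.01 and 19.6 CPM in clone 99. For MYO6 the wild-type clones at 58.5 and 66.1 CPM lay with clone 84. MYO5B, a carrier of recycling endosomes, averaged 5.99 ± 1.82 CPM in clone 84, 1.02 ± 0.0471 CPM in clone 98 and 1.53 ± 0.333 CPM in clone 99. MYO5C, a related vesicle motor, averaged 1.237 ± 0.202 CPM in clone 84, 4.64 ± 0.427 CPM in clone 98 and 3.11 ± 0.264 CPM in clone 99. MYO7A, known from stereocilia, was low in all 3 lines, at 0 to 0.0943 CPM in clone 84 and 0.273 to 2.12 CPM in the knockout clones.

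Of 44 regulators of filopodia and actin tested, MTSS1 and EPS8 rose (4.55%, against 5.88% of all genes) and ESPN and SRGAP3 fell (4.55%, against 4.17%), shares near those of all genes, and the median log2 fold change was 0.06. EPS8, which caps and bundles actin, had 228, 208, 164 and 201 CPM in clone 84, 64.4, 68.7, 73.4 and 84.2 CPM in clone 98 and 57.1, 58.6, 61.8 and 62.5 CPM in clone 99. The log2 fold change of EPS8 was 1.60 ± 0.07 (edgeR, adjusted p of 6.9e-16). MTSS1, which bends membrane through an I-BAR domain, averaged 2.39 ± 0.259 CPM in clone 84, 0.292 ± 0.170 CPM in clone 98 and 0.127 ± 0.0603 CPM in clone 99. SRGAP3, of a family whose F-BAR domains also shape protrusions, had 1.64 to 2.35 CPM in clone 84 and 3.52 to 5.94 CPM in the knockout clones. FSCN1, the bundler of filopodial actin, and the formin FMNL2 had log2 fold changes of -0.92 ± 0.07 and -0.93 ± 0.05, past the test and short of the fold required. FSCN1 averaged 147 ± 19.9 CPM in clone 84, 274 ± 39.8 CPM in clone 98 and 281 ± 18.7 CPM in clone 99. ENAH, VASP, CDC42, DIAPH1 and DIAPH3 were not called.

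Of 8 tested genes for osteopontin and its receptors, SPP1 fell (12.5%, against 4.17% of all genes) and CD44 rose (12.5%, against 5.88%). The integrin subunits among them were not called. CD44, a receptor for hyaluronan and osteopontin, had 430.4, 399, 395 and 420.1 CPM in clone 84, 155, 137, 156 and 172 CPM in clone 98 and 149, 168, 179.9 and 193 CPM in clone 99. The log2 fold change of CD44 was 1.33 ± 0.05 (edgeR, adjusted p of 1.0e-20), and leaders were higher still at 663 CPM. Among 33 genes of integrins and focal adhesions, ITGA10 and ITGB6 rose (6.06%, near the 5.88% of all genes). ITGA6, ITGA7, ITGB4 and ITGB8 fell (12.1%, against 4.17%). ITGA6 and ITGB4 form the laminin receptor of hemidesmosomes. ITGA6 had 289, 313, 363 and 266 CPM in clone 84, 708, 662, 582 and 638 CPM in clone 98 and 887, 893, 860.2 and 956 CPM in clone 99. ITGB4 was near the fold required at -1.02 ± 0.12 and lost its call when any 1 of 5 cultures was left out. ITGB8, which joins ITGAV to activate latent TGF-beta, averaged 0.301 ± 0.0864 CPM in clone 84, 6.45 ± 0.946 CPM in clone 98 and 6.86 ± 0.925 CPM in clone 99.

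Among 51 genes of the extracellular matrix, 11 rose (21.6%, against 5.88% of all genes) and 4 fell (7.84%, against 4.17%). The median log2 fold change was 0.31. With the fold required against each knockout clone, 6 rose and 2 fell. THBS1, the matricellular glycoprotein thrombospondin, had 413, 340.5, 242 and 235 CPM in clone 84, 45.1, 69.9, 105 and 83.9 CPM in clone 98 and 9.01, 30.8, 53.8 and 64.1 CPM in clone 99. Leaders averaged 535 CPM for THBS1. The nidogens NID1 and NID2, which link laminin to collagen in basement membranes, rose by 2.10 and 3.47 on the log2 scale, and COL5A1, COL6A2, COL6A3, COL13A1, COL4A5, VCAN, LOXL2 and MATN3 were the others called higher. NID2 averaged 13.3 ± 3.17 CPM in clone 84, 0.650 ± 0.129 CPM in clone 98 and 2.19 ± 0.537 CPM in clone 99. The 4 that fell were COL7A1 and the basement membrane components AGRN, LAMA5 and HSPG2. AGRN, a heparan sulfate proteoglycan, had 51.8, 43.1, 47.9 and 60.7 CPM in clone 84, 141, 133, 144 and 141 CPM in clone 98 and 142, 130.3, 146 and 148 CPM in clone 99. HSPG2 lost its call when any 1 of 5 cultures was left out. Fibronectin, FN1, was not called at 0.82 ± 0.22 (edgeR, adjusted p of 0.072).

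Of 29 matrix proteases and inhibitors, PLAU rose (3.45%, against 5.88% of all genes) and ADAM8, ADAMTS1 and SERPINE2 fell (10.3%, against 4.17%). SERPINE2, an inhibitor of thrombin and urokinase, averaged 4.33 ± 0.713 CPM in clone 84, 18.6 ± 7.45 CPM in clone 98 and 34.8 ± 20.02 CPM in clone 99. PLAU, which encodes urokinase, averaged 96.5 ± 17.1 CPM in clone 84, 26.5 ± 7.37 CPM in clone 98 and 59.05 ± 32.3 CPM in clone 99. The PLAU groups overlapped, and its call was lost without clone 84 replicate 3 and without replicate 1, 2 or 3 of clone 99.

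Epithelial genes did not move together. Of 22 tested, 3 rose (KRT7, KRT80 and DSP) and 5 fell (CLDN1, CLDN3, TJP3, KRT8 and DSC2), with a median log2 fold change of -0.39. The shares were 13.6% higher and 22.7% lower, against 5.88% and 4.17% of all genes. KRT8, a keratin of simple epithelia, had 26.9, 23.4, 28.1 and 31.4 CPM in clone 84, 626, 649, 595 and 529.8 CPM in clone 98 and 232, 305, 398 and 286 CPM in clone 99. Clone 84 was the lowest and clone 98 the highest of the 3, and the log2 fold change was -3.96 ± 0.13 (edgeR, adjusted p of 1.9e-20). Wild-type clones averaged 15.05 and 30.4 CPM and leaders 109 CPM. CLDN1, a tight junction claudin, had 60.98, 71.8, 44.4 and 25.8 CPM in clone 84, 360.1, 408, 414 and 291 CPM in clone 98 and 130.4, 254, 338 and 173 CPM in clone 99. DSP, the desmosomal plaque protein desmoplakin, had 147, 152, 106 and 135 CPM in clone 84, 17.1, 18.6, 10.3 and 16.6 CPM in clone 98 and 7.99, 7.18, 5.85 and 6.59 CPM in clone 99.

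Of 24 mesenchymal genes and factors of epithelial-mesenchymal transition, CDH2 and ZEB2 rose (8.33%, against 5.88% of all genes). S100A4, TAGLN and CNN1 fell (12.5%, against 4.17%). CDH2, N-cadherin, had 30.99, 27.02, 32.9 and 28.2 CPM in clone 84, 0.0681, 0.224, 0.115 and 0.140 CPM in clone 98 and 12.1, 13.6, 10.99 and 12.3 CPM in clone 99. Clone 98 was nearly without CDH2 and clone 99 was closer to clone 84, with the wild-type clones at 36.3 and 43.7 CPM above all 3. ZEB2, a repressor of E-cadherin, had 19.5 to 23.9 CPM in clone 84 and 3.12 to 7.59 CPM in the knockout clones. S100A4, TAGLN and CNN1 were each below 3.3 CPM in all 12 libraries.

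In the Notch pathway, the signal that JAG1 starts, 2 of 27 genes rose (7.41%, against 5.88% of all genes) and 4 fell (14.8%, against 4.17%). The receptor NOTCH3, the ligand JAG2, the glycosyltransferase LFNG and DTX4 fell, with log2 fold changes of -1.34, -1.05, -1.42 and -1.21, while the co-activator MAML2 and the ligand-like DNER rose. DNER averaged 26.2 ± 5.69 CPM in clone 84, 1.71 ± 0.614 CPM in clone 98 and 5.79 ± 2.10 CPM in clone 99. Of 17 Notch targets, BHLHE41 and TBX3 rose (11.8%, against 5.88% of all genes) and NRARP and GATA3 fell (11.8%, against 4.17%). NRARP, a target that feeds back on the pathway, averaged 6.90 ± 0.753 CPM in clone 84, 30.3 ± 2.31 CPM in clone 98 and 19.6 ± 1.32 CPM in clone 99. GATA3, a transcription factor, had 7.06, 7.19, 4.73 and 4.77 CPM in clone 84, 22.6, 25.1, 30.1 and 35.02 CPM in clone 98 and 18.4, 25.9, 31.9 and 31.4 CPM in clone 99. The targets HES1 and HEY1 had log2 fold changes of -0.54 ± 0.26 and 0.72 ± 0.19 and did not pass the test.

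Of 42 genes of TGF-beta and BMP signalling, 8 rose (19%, against 5.88% of all genes) and the ligand GDF6 fell (2.38%, against 4.17%). Those that rose were the ligand BMP2, the mediators SMAD3 and SMAD9, the inhibitors SMAD7, CHRD and BAMBI, and LTBP1 and PMEPA1. PMEPA1, a TGF-beta target that restrains the pathway, averaged 112 ± 13.7 CPM in clone 84, 46.5 ± 13.6 CPM in clone 98 and 30.6 ± 6.47 CPM in clone 99. Of 36 WNT genes, 6 rose (16.7%, against 5.88% of all genes) and AXIN2, a target and inhibitor, fell (2.78%, against 4.17%). WNT5B, a ligand, had 47.6, 47.7, 38.00 and 33.5 CPM in clone 84, 3.07, 3.96, 3.92 and 4.37 CPM in clone 98 and 8.43, 6.79, 8.77 and 13.1 CPM in clone 99. LEF1, a transcription factor of the pathway, reached 0.455 to 1.61 CPM in clone 84 and 0 to 0.0924 CPM in the knockout clones, and WNT7B lost its call without clone 84 replicate 3. Of 25 genes of ERBB signalling, none rose (against 5.88% of all genes) and ERBB3, DUSP6 and SPRY4 fell (12%, against 4.17%). SPRY4, a feedback inhibitor of receptor tyrosine kinases, averaged 69.02 ± 11.4 CPM in clone 84, 235 ± 58.1 CPM in clone 98 and 249 ± 47.1 CPM in clone 99.

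Of 52 axon guidance genes, which also steer migrating cells, 9 fell (17.3%, against 4.17% of all genes) and 3 rose (5.77%, near the 5.88% of all genes). The median log2 fold change was -0.30. Those that fell were SEMA3C, SEMA3D, SEMA3F, SEMA4B, SEMA6A, SLIT1, SLIT2, EPHA4 and EPHA7, and those that rose were SEMA3A, SEMA3E and the semaphorin receptor NRP2. EPHA4, a receptor of ephrins, had 0.256 to 0.478 CPM in clone 84 and 1.29 to 3.70 CPM in the knockout clones. Of 34 HOX genes tested, 5 rose (HOXA11, HOXA13, HOXB9, HOXD11 and HOXD13, 14.7% against 5.88% of all genes) and none fell (against 4.17%). The count was 1 with the fold required against each knockout clone, and 3 without clone 84 replicate 3, without clone 99 replicate 1 or with the 12 libraries alone. HOXA13 was the most abundant of these that is detailed here, with 3.09 to 3.96 CPM in clone 84 and 1.30 to 2.20 CPM in the knockout clones. Of 26 YAP and TAZ targets, F3 rose (3.85%, against 5.88% of all genes) and ASAP1 fell (3.85%, near the 4.17% of all genes). In the lists of S100 and LIM proteins (22 tested) and of the IGF axis (12 tested), S100A2 rose and CRIP1, S100A4 and IGFBP6 fell. Of the S100 and LIM list 4.55% rose and 9.09% fell, against 5.88% and 4.17% of all genes. Of the IGF axis 8.33% fell.

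**Figure D4:**
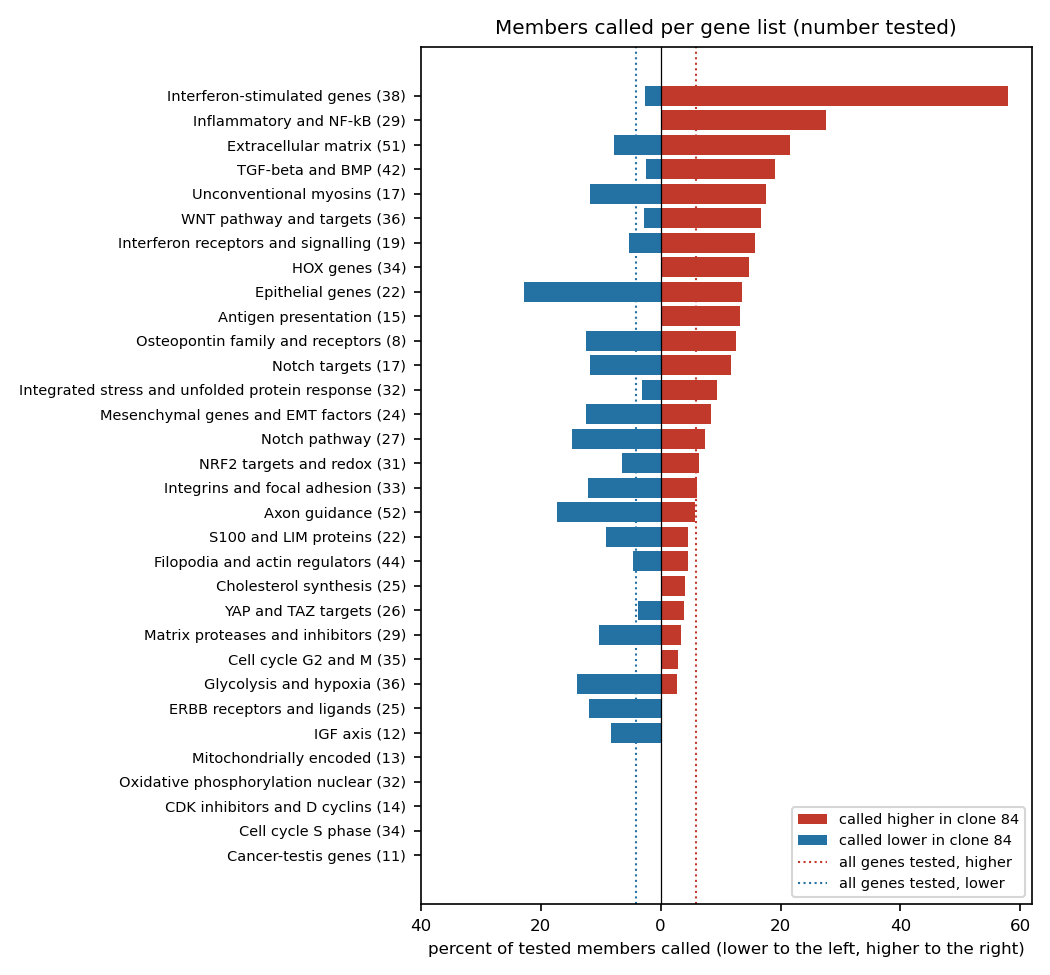
Percent of the tested members of each gene list that were called higher (right) or lower (left) in clone 84 against both knockout clones, with the number tested in brackets; dotted lines mark the shares over all genes, 5.88% higher and 4.17% lower. Interferon-stimulated genes reach 57.9% higher.

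Metabolic and stress genes gave scattered calls. Of 36 genes of glycolysis and hypoxia, P4HA2 rose (2.78%, against 5.88% of all genes) and SLC2A3, SLC16A3, NDRG1, ADM and EPAS1 fell (13.9%, against 4.17%). SLC2A3, the glucose transporter GLUT3, had 6.19, 7.69, 21.4 and 16.6 CPM in clone 84, 55.7, 67.01, 76.8 and 80.6 CPM in clone 98 and 121, 78.5, 88.00 and 47.3 CPM in clone 99. Of its clone 84 cultures, replicates 3 and 4 were the higher ones. Of 32 genes of the stress and unfolded protein responses, ATF3, DDIT4 and TRIB3 rose (9.38%, against 5.88% of all genes) and EDEM1 fell (3.12%, against 4.17%). TRIB3, a pseudokinase induced by ATF4, had 28.2, 29.9, 87.6 and 32.6 CPM in clone 84, 14.7, 12.6, 13.4 and 12.2 CPM in clone 98 and 11.7, 7.91, 12.03 and 8.32 CPM in clone 99. Of 31 NRF2 targets, HMOX1 and SRXN1 rose (6.45%, near the 5.88% of all genes) and ME1 and MGST1 fell (6.45%, against 4.17%). HMOX1, heme oxygenase, had 22.1, 25.9, 122 and 25.7 CPM in clone 84, 23.5, 18.2, 20.8 and 26.3 CPM in clone 98 and 15.4, 17.8, 22.9 and 29.3 CPM in clone 99. Without replicate 3 of clone 84 its call was lost, and the log2 fold change was 0.17 (edgeR, adjusted p of 0.98). It was also lost without clone 98 replicate 2 or clone 99 replicate 1, and with the 12 libraries alone (adjusted p of 0.18). DDIT4 lost its call when any 1 of 4 cultures was left out, and came to 0.70 on the log2 scale without clone 84 replicate 3.

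Proliferation and respiration genes gave hardly any calls. None of 34 S phase genes, 1 of 35 genes of G2 and M phase (CDC25B, higher), none of 14 CDK inhibitors and D cyclins, none of 32 nuclear genes of oxidative phosphorylation and none of 13 mitochondrially encoded genes was called. Their median log2 fold changes were -0.05, 0.19, 0.22, 0.14 and 0.12. The call in G2 and M phase was 2.86% of that list, against 5.88% of all genes called higher and 4.17% called lower. CCND1, cyclin D1, averaged 674 ± 116 CPM in clone 84, 666 ± 83.1 CPM in clone 98 and 636 ± 146 CPM in clone 99. Of 25 genes of cholesterol synthesis STARD4 rose (4.0%, against 5.88% of all genes), and none of 11 cancer-testis genes was called.

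Neighbouring genes shared a direction in some regions of the genome. Tested genes were taken in chromosome order in 474 windows of 40 genes, and runs of at least 3 windows were kept in which the medians against both knockout clones exceeded 0.3 on the log2 scale in the same direction. This rule was chosen after the values had been seen and carries no test. It gave 7 runs, 2 higher and 5 lower in clone 84, which held 1400 genes and 230 of the called genes. The run on chromosome 20 from 0.3 to 17.6 Mb, where JAG1, BMP2, TRIB3 and MAVS lie, had medians of 0.91 against clone 98 and 0.64 against clone 99. Of its 120 genes, 25.0% were called higher, against 5.88% of all genes. The run on chromosome 18 from 23.7 to 76.5 Mb, where CDH2 and MYO5B lie, had medians of 0.47 and 0.61, with 24.4% of its 160 genes called higher.

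The lower runs covered chromosome 3 from 33.5 to 100.6 Mb, chromosome 8 from 95.9 to 144.4 Mb, chromosome 16 from 0.0 to 2.7 Mb and from 34.3 to 70.7 Mb, and chromosome 21 from 5.0 to 45.3 Mb. The chromosome 21 run, which holds the interferon receptor genes given above, had medians of -0.69 against clone 98 and -0.55 against clone 99. Those of the longer chromosome 16 run were -0.70 and -0.66. Relative to the median of the 10 lines, the chromosome 20 run stood at 0.18 in clone 84, -0.59 in clone 98 and -0.36 in clone 99, so the knockout clones were the ones apart there. The longer chromosome 16 run stood at -0.56 in clone 84, 0.07 in clone 98 and 0.01 in clone 99, so there clone 84 was apart. Of the 1159 genes called higher, 69 lay in the higher runs, and of the 821 called lower, 135 lay in the lower runs. In the lower runs 10.0% to 13.3% of genes were called lower, against 4.17% of all genes. The runs were chosen by the same fold changes that make the calls, so shares above those of all genes follow from the choice. DNA was not measured, and what underlies the runs was not tested.

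**Figure D5:**
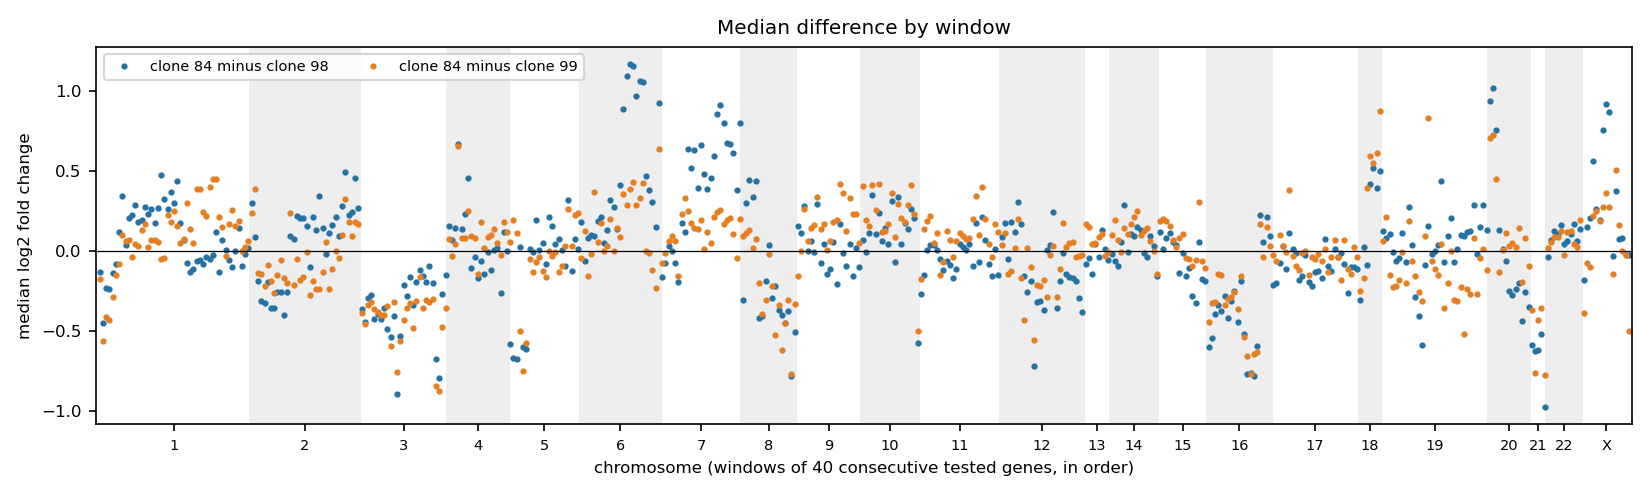
Median log2 fold change of clone 84 against clone 98 and against clone 99 in 474 windows of 40 consecutive tested genes, in chromosome order. Both comparisons lie above 0 in the runs on chromosomes 18 and 20 and below 0 in those on chromosomes 3, 8, 16 and 21.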

How the data were processed

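RNA of 40 cultures was sequenced, and the 12 of clones 84, 98 and 99 are compared here. The authors deposited a table of read counts for 59251 gene symbols, whole numbers that carry no normalization, per the file headers. The build hg38 and the programs STAR 2.7.11b, HTSeq 2.0.5, fastp 0.23.4, FastQC 0.12.0 and MultiQC 1.24.1 are named per the submitters' processing notes, without their role or order. The strand setting and the annotation release are not given in the sources used here, so reads of overlapping antisense genes, and of near-identical keratin, HLA and interferon-induced copies, cannot be told apart. Symbols were placed on the genome by name through RefSeq's GRCh38.p14 table.

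All 40 libraries entered 1 edgeR 4.0.16 fit with a term for each line (R 4.3.3; robust quasi-likelihood, TMM factors of 1.002 to 1.058 in the 12 libraries, filterByExpr with a minimum count of 10), which left 19703 genes holding 99.96% of counts, 30 residual degrees of freedom and a biological coefficient of variation of 8.62%. A gene's p was the larger of those against clones 98 and 99, or 1 where directions differed, adjusted by Benjamini-Hochberg over all genes. Adjusted p-values throughout are from this edgeR test. The standard error covers cultures, not clones. CPM are per TMM-scaled total. The procedure was tested on simulated data. Alternatives were other scalings (RLE, library totals), filters, DESeq2 1.42.0, the 12 libraries alone, a replicate block, the fold required against each knockout clone, counts summed per line, and leaving out each culture. Cultures of a line correlated at a Spearman coefficient of at least 0.9896. The variance between their counts was at least 3.88 times that of counting error alone (chi-square per degree of freedom). Floors of 3 counts cover counting error only.

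Named genes were MYO10, JAG1, SPP1 and OASL, the 12 highest and 12 lowest called genes of at least 5 CPM with established names, and up to 4 called members per list and direction. Others named in the text were chosen after their values were seen. The comparison, the members and the lists were chosen with earlier results of these data known.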

Additional observations from a re-analysis of the deposited data

Results flagged for a closer look

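For each named gene, the gap between the highest or lowest of a line's 4 cultures and its nearest neighbour was divided by their range. Dixon's criterion was applied to this ratio in 362 groups whose genes had enough counts. It picked out 23, and chance alone gives about 1 in 20, or 18.1. Replicate 3 of clone 84 stood apart as the highest culture for 7 genes. HMOX1 was 122 CPM there against 25.9 CPM in the next culture, TRIB3 87.6 against 32.6, SRXN1 152.7 against 101.2, MYO10 190.6 against 139.7, EPAS1 11.3 against 6.29, COL6A3 1.55 against 0.849 and WNT7B 1.32 against 0.419 CPM. Replicate 4 of clone 84 was the highest for ATF3 (21.1 against 14.9 CPM), CXCL10 (1.30 against 0.705 CPM) and ITGB4 (6.17 against 4.62 CPM), and replicate 3 was the lowest for PRKAA2 (30.2 against 36.5 CPM).

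In clone 98, single cultures were the highest for C12orf56 (3.45 CPM), KRT7 (0.550 CPM), KRT80 (28.0 CPM), NRP2 (3.07 CPM), SEMA3E (1.56 CPM), SERPINE2 (29.7 CPM) and SRXN1 (48.3 CPM), and the lowest for GDF6 (10.4 CPM). In clone 99 they were the highest for HOXA11 (1.42 CPM), KRT80 (37.7 CPM) and MYO5B (2.03 CPM), and the lowest for EYA1 (5.13 CPM).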

How the results depend on the processing

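The count of 1980 called genes was between 1927 and 1980 when single cultures were left out (1102 to 1155 higher, 798 to 855 lower). It was 1388 with a stricter filter of at least 50 counts in 4 libraries, which tests fewer genes (820 higher, 568 lower), 1547 with the fold required against each knockout clone, 1700 with the 12 libraries alone and 1980 by DESeq2, and of the 1980 genes, 1374, 1547, 1684 and 1946 remained called in the same direction under these settings. With counts summed per line it was 0 (0 higher, 0 lower). The stricter filter gave 1878 genes against clone 98 (1150 higher, 728 lower), 1687 against clone 99 (920 higher, 767 lower) and 1150 between clones 98 and 99 (498 higher, 652 lower). Leaving out single cultures gave 3037 to 3181, 2770 to 2896 and 1766 to 2006 genes for these pairs. No named gene changed sign. With the fold required against each knockout clone, the members called also numbered 0 higher for interferon receptors and signalling (3 as reported) and for antigen presentation (2), 2 lower for integrins (4) and for the Notch pathway (4), 5 higher for TGF-beta and BMP (8) and 1 higher for axon guidance (3). Without clone 84 replicate 3, integrins had 2 lower and NRF2 targets 0 higher (2 as reported). The replicate numbers were not used as pairs, since not every same-numbered pair correlated above 0.1. This rule does not show that same-numbered cultures were handled apart. The correlations of same-numbered cultures ran from -0.302 to 0.212 between clone 84 and the knockout clones. Between clones 98 and 99 they were -0.100, 0.467, 0.496 and 0.334 for replicates 1 to 4, and those of different numbers ran from -0.415 to 0.321. A replicate block gave 1984 calls (1163 higher, 821 lower), and of the named genes HMOX1 (0.995 on the log2 scale) and SOCS3 (-0.971) lost their call under it. Without clone 84 replicate 3, 13 of 139 named genes lost their call, namely CLDN3, DDIT4, HMOX1, HOXA11, ISYNA1, ITGA7, ITGB4, JAG2, PLAU, RNR1, SOCS1, SRXN1 and WNT7B; the cause was not tested. AHNAK2, ASAP1, CDC25B, HSPG2, IFNLR1, ITGB6, NKX2-1, S100A2, SOCS3, STARD4, TAGLN, UAP1 and WNT6 lost theirs without at least 1 other culture. Genes under about 10 counts in every library lie below what this depth can compare.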

Other observations

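The 12 most abundant called genes, a set chosen after the values were seen, included several not described above. TMSB4X, which encodes the actin-sequestering peptide thymosin beta-4, had 54.1, 51.01, 68.2 and 59.8 CPM in clone 84, 344, 411, 483 and 307 CPM in clone 98 and 816, 883, 907 and 579 CPM in clone 99. The log2 fold change was -3.25 ± 0.14 (edgeR, adjusted p of 1.4e-16). Wild-type clones averaged 16.8 and 48.9 CPM and leaders 81.02 CPM. UCHL1, a ubiquitin hydrolase of neurons and some carcinomas, had 493, 462, 579 and 496 CPM in clone 84, 60.1, 93.3, 84.97 and 88.4 CPM in clone 98 and 228, 274, 279 and 292 CPM in clone 99, with clone 98 the lowest. YWHAQ, a 14-3-3 adaptor, rose by 1.08 ± 0.03 on the log2 scale, with 1313 CPM in clone 84, 579 CPM in clone 98 and 665 CPM in clone 99. F2RL1, a receptor cleaved by trypsin-like proteases, had a log2 fold change of -1.51 ± 0.12, with 129 CPM in clone 84, 242 CPM in clone 98 and 554 CPM in clone 99. The enzymes ISYNA1 and UAP1, the giant scaffold protein AHNAK2 and the mitochondrial ribosomal RNA RNR1 were also called, at -1.06, -1.08, -1.06 and 1.02, and UAP1 lost its call with the 12 libraries alone (-1.09 on the log2 scale, adjusted p of 0.078).

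MAP1B, a microtubule-associated protein of growing neurites, averaged 119.7 ± 28.4 CPM in clone 84, 4.98 ± 0.483 CPM in clone 98 and 13.5 ± 4.55 CPM in clone 99, against 47.7 and 16.99 CPM in wild-type clones and 184 CPM in leaders.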
